A study of Mus musculus with 8 samples.

Results

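The Toll-like receptor family was followed through 10 genes, Tlr1 to Tlr9 and Tlr13, taken by gene name out of 20258 named genes in the expression table. All 10 had values that varied between libraries and so were among the 13615 genes tested, with no filter on low values. Toll-like receptors are transmembrane proteins with an outer domain of leucine-rich repeats that binds microbial molecules and an inner TIR domain that recruits adaptor proteins. Tlr1, Tlr2, Tlr4, Tlr5 and Tlr6 act at the cell surface, where they detect lipopeptides, lipopolysaccharide and flagellin, whereas Tlr3, Tlr7, Tlr8, Tlr9 and Tlr13 act in endosomes and detect nucleic acids. Their signals run through the adaptors MyD88 and TRIF to NF-kappaB and interferon regulatory factors, and macrophages are among the cells that depend on them for sensing bacteria and viruses.

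Macrophages grown from the bone marrow of C57BL/6 mice received no stimulus (2 libraries), IL4 (3 libraries), or lipopolysaccharide (LPS) in combination with interferon gamma (IFNg; 3 libraries) over 24 h. All groups shared the strain and the culture, the labels name no genetic change in any of them, and doses were not found in the labels. LPS is itself the ligand of Tlr4, and IFNg acts through its own receptor, so the effects of the 2 agents of the combined stimulus cannot be told apart. Polyadenylated RNA was sequenced from its 3′ end with strand-specific libraries, and the labels do not say whether the libraries of a group came from separate animals or wells, so p-values measure the spread between these libraries, which may be technical.

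All values derive from the authors' table of log2 expression after quantile normalisation. A level is such a value, and a difference is a difference of group mean levels. A gene is called changed at an adjusted p under 0.05 from limma fitted to all 13615 tested genes in the 8 libraries. Depth per library is not known from these values. The number of tested genes listed at exactly 0 was 1577 and 2588 in the unstimulated libraries, 3204 to 3568 in the IL4 libraries and 2964 to 2985 in the LPS plus IFNg libraries, and the lowest level above 0 was 0.00363 in an unstimulated library and 1.98 in IL4 replicate 2. Between 74 and 202 genes per library were listed below 0, so 0 is not the lowest value of the scale, and no source used here says how the authors treated genes without reads. A gene at exactly 0 is therefore described as listed at 0, not as absent. All 7 macrophage markers examined were above 0 in each group, and their summed level was 14.25 to 14.33 without stimulus, 13.19 to 13.77 with IL4 and 13.64 to 13.73 with LPS plus IFNg. Each stimulus had its known targets: Arg1, the arginase induced by IL4, was at 13.41 to 13.69 in the IL4 libraries and at 2.31 and 4.19 without stimulus. Arg1 was also called higher with LPS plus IFNg, at 7.57 to 7.80, than without stimulus (4.40; limma, adjusted p = 0.00287), so its rise was not particular to IL4. Nos2, the inducible nitric oxide synthase, was at 10.06 to 10.43 in the LPS plus IFNg libraries and at 0 in the other 5.

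Of the 10 receptors, Tlr2, Tlr3, Tlr9 and Tlr13 were called changed in at least 1 comparison. The 250 bases upstream of the transcription start of these 4 genes are shown because their transcripts moved with the stimuli, from RefSeq promoter windows on GRCm38.p6, 5′ to 3′ on the strand of the gene. Capitals mark matches to short motifs that were searched on both strands. They are GGNNNTTCC, a form of the kappa-B element bound by NF-kappaB, and GAGGAA, a core of the element bound by the macrophage factor PU.1; GAAANNGAA, of interferon response elements, and TTCNNNGAA, of STAT elements, had no match in these 4 windows.
Tlr2, chr3:83841609-83841858, minus strand: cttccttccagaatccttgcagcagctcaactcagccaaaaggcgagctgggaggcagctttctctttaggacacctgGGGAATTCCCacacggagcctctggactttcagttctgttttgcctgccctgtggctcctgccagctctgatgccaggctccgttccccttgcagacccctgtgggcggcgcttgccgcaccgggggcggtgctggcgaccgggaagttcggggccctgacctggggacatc
Tlr3, chr8:45410381-45410630, minus strand: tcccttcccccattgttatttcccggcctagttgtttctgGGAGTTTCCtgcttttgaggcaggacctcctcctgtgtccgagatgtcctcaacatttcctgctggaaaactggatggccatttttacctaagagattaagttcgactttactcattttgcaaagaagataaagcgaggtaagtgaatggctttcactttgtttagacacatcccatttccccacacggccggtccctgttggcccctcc
Tlr9, chr9:106222348-106222597, plus strand: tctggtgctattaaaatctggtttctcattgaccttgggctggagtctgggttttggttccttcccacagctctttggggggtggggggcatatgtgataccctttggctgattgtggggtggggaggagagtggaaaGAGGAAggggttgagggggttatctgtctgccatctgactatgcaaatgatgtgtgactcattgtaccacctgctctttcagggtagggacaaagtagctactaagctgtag
Tlr13, chrX:106143025-106143274, plus strand: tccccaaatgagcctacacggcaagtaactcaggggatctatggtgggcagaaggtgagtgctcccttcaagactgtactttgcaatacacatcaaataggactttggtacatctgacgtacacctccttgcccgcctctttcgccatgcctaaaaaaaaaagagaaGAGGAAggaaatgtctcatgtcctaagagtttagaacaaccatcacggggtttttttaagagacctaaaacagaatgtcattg

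The Tlr2 window held the kappa-B-like motif at 172 bases before the start, where a palindrome matched on both strands, and the Tlr3 window held it at 210 bases before the start. The Tlr9 and Tlr13 windows held no kappa-B-like match and 1 PU.1-like match each in the printed stretch, at 112 and 83 bases before the start. Entries were found for 8 of the 10 members; Tlr4 and Tlr7 are named only. Among the other members, the interferon-response-like motif matched a window of Tlr6 at 115 and 109 bases before the start, and the Tlr8 window at 67 bases before it. Windows of Tlr5 and Tlr6 also held the kappa-B-like motif, at 20 and 98 bases before the start. Those of Tlr1 and Tlr8 held the PU.1-like motif, at 23 and 77 bases before it. STAT-like matches lay in windows of Tlr1, Tlr6 and Tlr8. Of 32851 RefSeq windows of 300 bases, 18.5% held the kappa-B-like motif, 28.3% the PU.1-like, 8.56% the interferon-response-like and 8.3% the STAT-like motif. Such matches are common letters and describe these windows only.

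**Figure D1:**
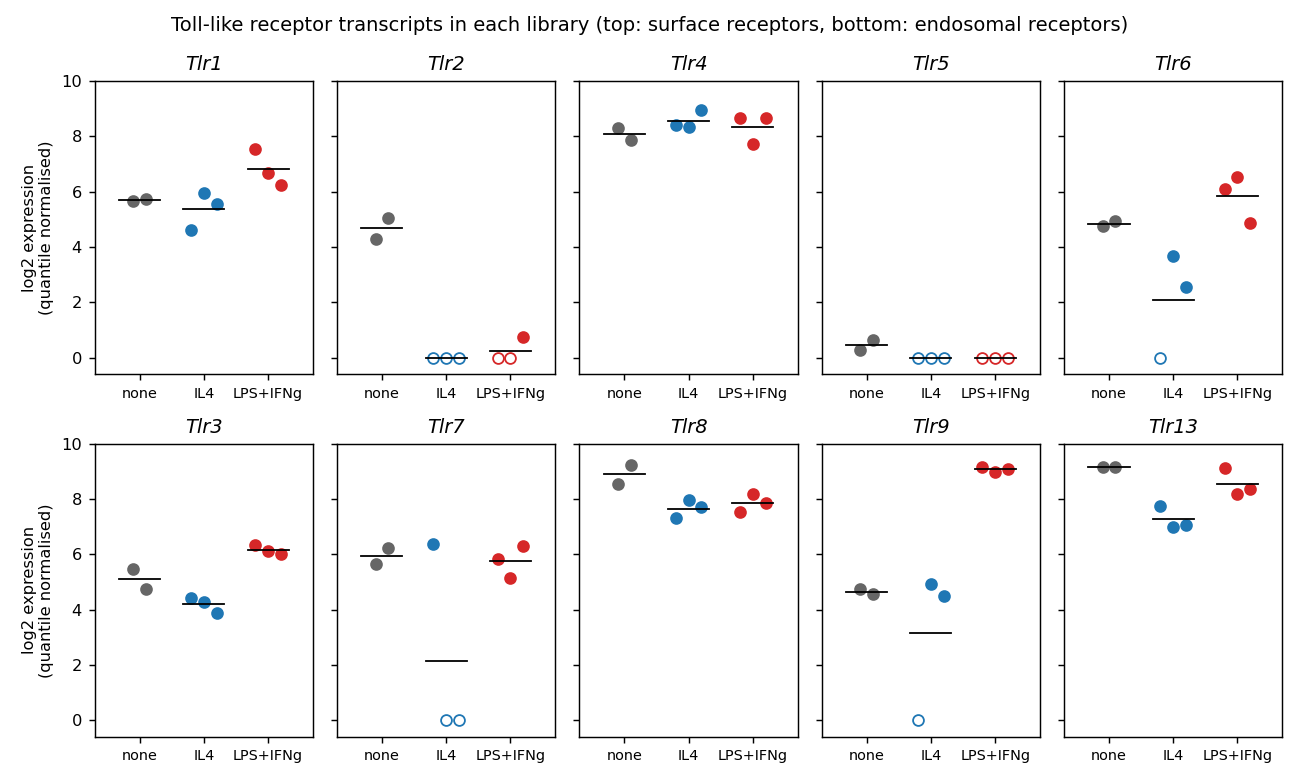
Level of each receptor (log2 expression, quantile normalised) in the 2 unstimulated, 3 IL4 and 3 LPS plus IFNg libraries; points are libraries, open points are listed at 0 and lines are group means. Tlr9 reaches 8.99 to 9.17 with LPS plus IFNg, Tlr2 lies above 4 only without stimulus, and Tlr4 stays between 7.71 and 8.95 in all 8 libraries.

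Among the surface receptors, Tlr2 was lower with both stimuli. Tlr2 pairs with Tlr1 or Tlr6 to bind bacterial lipopeptides. Its level was 4.29 and 5.04 in the unstimulated libraries, 0 in all 3 IL4 libraries, and 0, 0 and 0.75 in the LPS plus IFNg libraries, so that neither stimulated group overlapped the unstimulated one. limma called it lower with IL4 (adjusted p = 0.0137; no difference is given against a group listed at 0) and lower with LPS plus IFNg, by a log2 difference of -4.42 ± 0.53 (SE, n = 3 against 2; limma, adjusted p = 0.00403), a size that rests on 2 libraries listed at 0. The call with LPS plus IFNg held when each library was left out in turn (limma, adjusted p = 0.00507 to 0.0198). The call with IL4 also held then (adjusted p = 0.00538 to 0.0448), but was lost when only these 2 groups entered the limma fit (adjusted p = 0.103). Of 13615 tested genes, 2.23% were above 0 in both unstimulated libraries and at 0 in all IL4 libraries, as Tlr2 and Tlr5 were. The level of Tlr2 without stimulus was low; of 915 genes with both unstimulated levels between 4 and 5.5, a band chosen after its values were seen, 1.09% were at 0 in all 3 IL4 libraries and 7.54% at 0 in at least 2 LPS plus IFNg libraries.

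Markers of other cells also differed between the groups. Over 6 markers of neutrophils and their precursors, cells that also carry Tlr2, the summed level was 10.98 to 11.11 without stimulus, 9.83 to 10.63 with IL4 and 7.62 to 8.20 with LPS plus IFNg, with 1 marker, Mpo, at 0 in every LPS plus IFNg library. The 3 fibroblast markers summed to 11.13 to 11.54, 10.02 to 10.68 and 10.13 to 11.04 in the same order. Their part in the result was not tested, and in these bulk samples fewer cells of a type and less RNA per cell cannot be told apart.

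The partners of Tlr2 had other patterns. Tlr1, which with Tlr2 recognises triacylated lipopeptides, was at 5.64 and 5.72 without stimulus, at 4.61, 5.94 and 5.57 with IL4, and at 7.55, 6.67 and 6.23 with LPS plus IFNg. All LPS plus IFNg libraries were above the other 5, yet neither the difference from unstimulated (1.13 ± 0.56, SE; limma, adjusted p = 0.334) nor that from IL4 (1.44 ± 0.50, SE; limma, adjusted p = 0.119) passed the threshold. Its level with IL4 spanned the unstimulated pair, and the sign of that difference turned from -0.31 to 0.0731 without IL4 replicate 1.

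Tlr6, which with Tlr2 recognises diacylated lipopeptides, was at 4.74 and 4.94 without stimulus, at 0, 3.68 and 2.56 with IL4, and at 6.10, 6.53 and 4.88 with LPS plus IFNg. The IL4 libraries were the lowest 3 of the 8, and the lowest LPS plus IFNg library lay between the unstimulated ones. The difference between LPS plus IFNg and IL4 was 3.76 ± 1.05 (SE, n = 3 against 3; limma, adjusted p = 0.0597), with 95% limits of 1.30 and 6.21, and it passed without IL4 replicate 2 (limma, adjusted p = 0.0368). IL4 replicate 1 was at 0; without it the difference was 2.72 (limma, adjusted p = 0.0783). Tlr1 and Tlr6 are neighbouring genes of close sequence: 20.3% of the 36-base stretches of the Tlr1 transcript also occur in Tlr6, but only 4.09% of those in its last 500 bases, and 4.3% of those in the last 500 bases of Tlr6 occur in another gene. No source used here says how the authors assigned reads with several matches, so the split of reads between Tlr1 and Tlr6 is uncertain to that extent.

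Tlr4, the receptor for LPS, was at 8.28 and 7.86 without stimulus, at 8.41, 8.33 and 8.95 with IL4, and at 8.65, 7.71 and 8.66 with LPS plus IFNg. The IL4 libraries were all just above the unstimulated pair, and the LPS plus IFNg libraries spanned both. No difference passed the threshold: 0.49 for IL4 (95% limits -0.35 to 1.33; limma, adjusted p = 0.657), 0.26 for LPS plus IFNg (-0.58 to 1.11; limma, adjusted p = 0.760) and -0.23 between the stimuli (-0.98 to 0.53; limma, adjusted p = 0.712). The last of these turned to 0.26 with scaling on housekeeping genes, to 1.25 with scaling on ribosomal protein genes and to 0.0893 without LPS plus IFNg replicate 2. Tlr5, the receptor for bacterial flagellin, was at 0.26 and 0.62 without stimulus and at 0 in all 6 stimulated libraries.

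Among the endosomal receptors, Tlr9 had the largest differences of LPS plus IFNg from both other groups. Tlr9 detects DNA with unmethylated CpG, as found in bacteria. It was at 4.74 and 4.56 without stimulus, at 0, 4.94 and 4.50 with IL4, and at 9.17, 8.99 and 9.07 with LPS plus IFNg. The 3 LPS plus IFNg libraries lay close together and far above every other library. The difference from IL4 was 5.93 ± 1.21 (SE, n = 3 against 3) and passed the threshold (limma, adjusted p = 0.0188), and that from unstimulated was 4.43 ± 1.36 (SE, n = 3 against 2), with 95% limits of 1.25 and 7.60, and did not (limma, adjusted p = 0.109).

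For Tlr9, these values depended on IL4 replicate 1. Without it the difference from IL4 was 4.36 (limma, adjusted p = 0.00112), and the difference from unstimulated, still 4.43, passed the threshold (limma, adjusted p = 0.00171), as it also did when only those 2 groups entered the fit (limma, adjusted p = 0.00148). The difference of IL4 from unstimulated was -1.50 with it (limma, adjusted p = 0.722) and 0.0705 without it. Left out singly, either unstimulated library or any LPS plus IFNg library ended the call against IL4 (limma, adjusted p = 0.0601 to 0.0732). A single 0 of this kind was found in each IL4 library: of genes with both other IL4 levels at 4.5 or more, 0.833% were at 0 in IL4 replicate 1, 1.11% in replicate 2 and 0.943% in replicate 3, against 0.226 to 0.384% in the LPS plus IFNg libraries. The cutoff of 4.5 lies at the level of Tlr9 in IL4 replicate 3, 4.50. Genes of any higher level are included, so these shares are not matched to the level of Tlr9.

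Other cells that carry Tlr9 were checked by their markers. Of the 4 B cell markers, Pax5 was at 0 in all 8 libraries, Ms4a1 at 0 in all LPS plus IFNg libraries, and the summed level was 1.47 to 3.93 with LPS plus IFNg and 0 to 5.31 with IL4. Of the 6 dendritic cell markers, 2 were at 0 throughout the unstimulated group, 2 throughout the IL4 group and 3 throughout the LPS plus IFNg group, and the summed level was 2.81 to 5.77, 5.03 to 6.30 and 3.98 to 4.76. They did not move one way: Siglech, a marker of plasmacytoid dendritic cells, was at 1.90 and 4.36 without stimulus, at 2.60, 5.23 and 2.26 with IL4, and at 0 in all 3 LPS plus IFNg libraries. Xcr1, a marker of cross-presenting dendritic cells, was at 0, 2.28 and 3.88 with LPS plus IFNg and at 0 in the other 5, and Clec9a, of the same cells, was at 0.23 and 0 without stimulus, at 3.90, 0 and 1.17 with IL4 and at 4.66, 3.54 and 0 with LPS plus IFNg. Zbtb46 was at 0 and 2.43 without stimulus, at 4.90, 3.97 and 4.62 with IL4, and at 0 in all LPS plus IFNg libraries. It was the only dendritic cell marker called, lower with LPS plus IFNg than with IL4 (limma, adjusted p = 0.00995). Flt3 was at 0.13 and 4.78 without stimulus, at 4.74, 0 and 0 with IL4, and at 0 in all LPS plus IFNg libraries. Cd209a was at 0, 3.27 and -3.33 with LPS plus IFNg and at 0 in the other 5. The part of such cells in the Tlr9 result was not tested.

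Tlr3, the receptor for double-stranded RNA, was at 5.48 and 4.74 without stimulus, at 4.42, 4.26 and 3.89 with IL4, and at 6.34, 6.14 and 6.00 with LPS plus IFNg. The 3 groups did not overlap, in the order IL4, unstimulated, LPS plus IFNg. The difference between the stimuli was 1.97 ± 0.45 (SE, n = 3 against 3) and passed the threshold (limma, adjusted p = 0.0304). The neighbouring steps did not pass: -0.92 for IL4 (95% limits -2.12 to 0.27; limma, adjusted p = 0.521) and 1.04 for LPS plus IFNg (-0.15 to 2.24; limma, adjusted p = 0.326). An antisense gene, Gm45542, overlaps Tlr3 on the opposite strand, and the libraries are strand-specific per the labels. Leaving out any IL4 or any LPS plus IFNg library ended the call between the stimuli (limma, adjusted p = 0.0511 to 0.101), at differences of 1.82 to 2.09.

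Tlr13, a receptor for bacterial ribosomal RNA that mice have and humans lack, was at 9.17 in both unstimulated libraries, at 7.75, 6.98 and 7.06 with IL4, and at 9.11, 8.18 and 8.36 with LPS plus IFNg. Every IL4 library was below every other library, and every LPS plus IFNg library was below the unstimulated pair, the first of them only just. Against unstimulated the difference was -0.62 (limma, adjusted p = 0.400), and it turned to 0.0427 and 0.85 with scaling on housekeeping and on ribosomal protein genes. The difference between the stimuli was 1.29 ± 0.32 (SE, n = 3 against 3) and passed the threshold (limma, adjusted p = 0.0375). The lower level with IL4 than without stimulus, a difference of -1.91 ± 0.35 (SE, n = 3 against 2), did not (limma, adjusted p = 0.0579), though its 95% limits were -2.73 and -1.08. Leaving out either unstimulated library, IL4 replicate 2 or 3, or any LPS plus IFNg library ended the call between the stimuli (limma, adjusted p = 0.0514 to 0.0974).

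Tlr7, which detects single-stranded RNA, and its close relative Tlr8, the neighbouring gene, had different patterns. Tlr8 was at 8.56 and 9.23 without stimulus, at 7.31, 7.96 and 7.70 with IL4, and at 7.53, 8.19 and 7.85 with LPS plus IFNg. All 6 stimulated libraries were below the unstimulated pair, by mean differences of -1.24 (95% limits -1.99 to -0.48; limma, adjusted p = 0.157) and -1.04 (-1.79 to -0.28; limma, adjusted p = 0.113), and neither passed the threshold. The second turned to 0.43 with scaling on ribosomal protein genes.

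Tlr7 was at 5.66 and 6.23 without stimulus, at 6.39, 0 and 0 with IL4, and at 5.83, 5.14 and 6.28 with LPS plus IFNg. IL4 replicate 1 had the highest level of all 8 libraries, while the other 2 IL4 libraries were at 0, so the IL4 group has no common level. The differences of IL4 from unstimulated (-3.81; limma, adjusted p = 0.480) and of LPS plus IFNg from IL4 (3.62; limma, adjusted p = 0.233) did not pass, and both did without IL4 replicate 1 (limma, adjusted p = 0.0404 and 0.00693). In that fit the other 2 IL4 libraries stand at 0. LPS plus IFNg and unstimulated libraries overlapped (difference -0.19, 95% limits -4.60 to 4.22; limma, adjusted p = 0.996), with a sign that turned with both scalings and when the second unstimulated or the second LPS plus IFNg library was left out, to 0.0940 and 0.114.

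**Figure D2:**
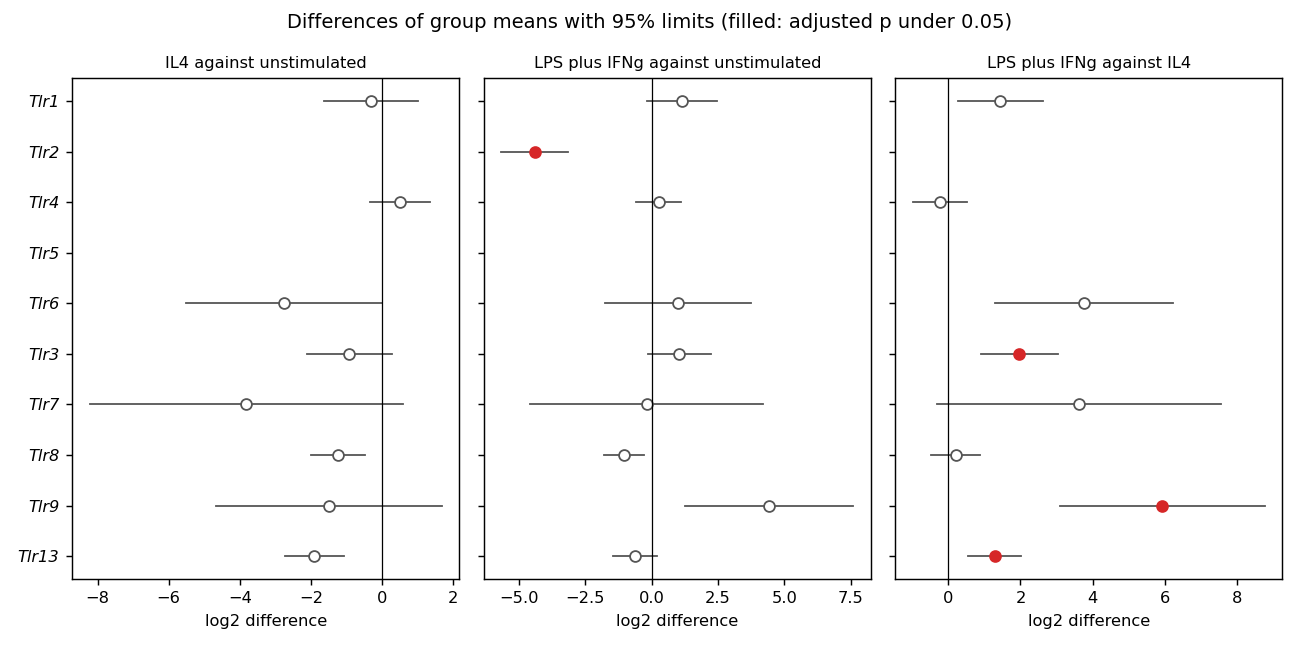
Log2 difference of group means for each receptor with its 95% limits (lines) in the 3 comparisons; filled points passed an adjusted p of 0.05. Comparisons against a group listed at 0 throughout are not drawn. Tlr2 is the filled point against unstimulated (-4.42), and Tlr3 (1.97), Tlr9 (5.93) and Tlr13 (1.29) are filled between the stimuli.

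Over the family, IL4 against unstimulated gave 0 members called higher and 1 called lower of 10, where 0.514% of all tested genes were called higher and 0.793% lower. Every IL4 library was below both unstimulated libraries for 6 members, Tlr2, Tlr3, Tlr5, Tlr6, Tlr8 and Tlr13, against 14.7% of all tested genes, and above both for 1, Tlr4, against 11.7%. The unstimulated levels of Tlr5, 0.26 and 0.62, were below the lowest level above 0 in any IL4 library, 0.88. The median difference of the 10 was -1.37, beside -0.01 for all tested genes. Tlr2, Tlr5, Tlr6, Tlr7 and Tlr9 were listed at 0 in IL4 libraries, which held more tested genes at 0 than the unstimulated ones. The genes set beside the members were not matched to them by level. LPS plus IFNg against unstimulated gave 0 called higher and 1 called lower, where the background was 3.72% and 4.25%. Here 3 members, Tlr1, Tlr3 and Tlr9, were above unstimulated in every library (16.1% of tested genes were) and 4, Tlr2, Tlr5, Tlr8 and Tlr13, were below it (20.7%), with a median difference of 0.04 beside -0.04. Of the 4, Tlr5 was at 0 against 0.26 and 0.62, and the highest LPS plus IFNg level of Tlr13 was 9.11 against 9.17. Counts over 10 members are too few to say that the family divided. LPS plus IFNg against IL4 gave 3 called higher and 0 called lower, where the background was 5.91% and 6.96%. Every LPS plus IFNg library was above every IL4 library for 5 members, Tlr1, Tlr3, Tlr6, Tlr9 and Tlr13 (12.4% of tested genes were), and below for 0 (14.8%), with a median difference of 1.36 beside 0. Under scaling on ribosomal protein genes, which moved the median of all genes by 1.18 in the last comparison, 8 members were called there, and Tlr8 and Tlr13 were no longer lower with LPS plus IFNg than without stimulus. The 3 comparisons share libraries in pairs and are not independent of each other. Without any 1 of the LPS plus IFNg libraries the last count was 0, without either unstimulated library or IL4 replicate 3 it was 1, and without IL4 replicate 2 it was 2.

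Levels of the members varied together in part across the 8 libraries, which fall into 3 groups, so a correlation reflects the groups and is given as a description. Pearson's r between Tlr1, Tlr3, Tlr6 and Tlr9 ranged from 0.748 to 0.909, and that between Tlr2, Tlr5 and Tlr8 from 0.879 to 0.931. These sets were chosen after the values were seen. Tlr5 was listed at 0 in all stimulated libraries, and Tlr2 in all but LPS plus IFNg replicate 3, at 0.75. In the first set, IL4 replicate 1 was at 0 for Tlr6 and Tlr9 and had the lowest level of Tlr1, 4.61. Tlr4 had r below 0 with each of the other 9 members.

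For each member called changed, the genes most like it were taken among 7282 or 7283 tested genes with a mean level of at least 5. Those nearest to Tlr2 were Ptpn18, a tyrosine phosphatase (r = 0.977), 4632428N05Rik (r = 0.973) and C5ar1, the receptor for the complement fragment C5a (r = 0.959). C5ar1 was at 10.87 and 10.85 without stimulus, 7.83 to 8.54 with IL4 and 8.43 to 8.83 with LPS plus IFNg, lower in every stimulated library than in both unstimulated ones and far from 0 in all 8. Those nearest to Tlr3 were Lgals8, a galectin (r = 0.985), Birc3, a ubiquitin ligase (r = 0.979), and Scarf1, a scavenger receptor (r = 0.976). Those nearest to Tlr9 were Tmbim4, a membrane protein (r = 0.981), Tnf, the inflammatory cytokine (r = 0.980), and Extl3, a glycosyltransferase (r = 0.976). Tnf was at 3.90 and 3.76 without stimulus, at 0, 5.48 and 5.57 with IL4 and at 8.88 to 9.16 with LPS plus IFNg, with its single 0 in IL4 replicate 1, as for Tlr9. Those nearest to Tlr13 were Tspan13, a tetraspanin (r = 0.974), Nlrp1b, an inflammasome sensor (r = 0.973), and A930001N09Rik (r = 0.969).

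**Figure D3:**
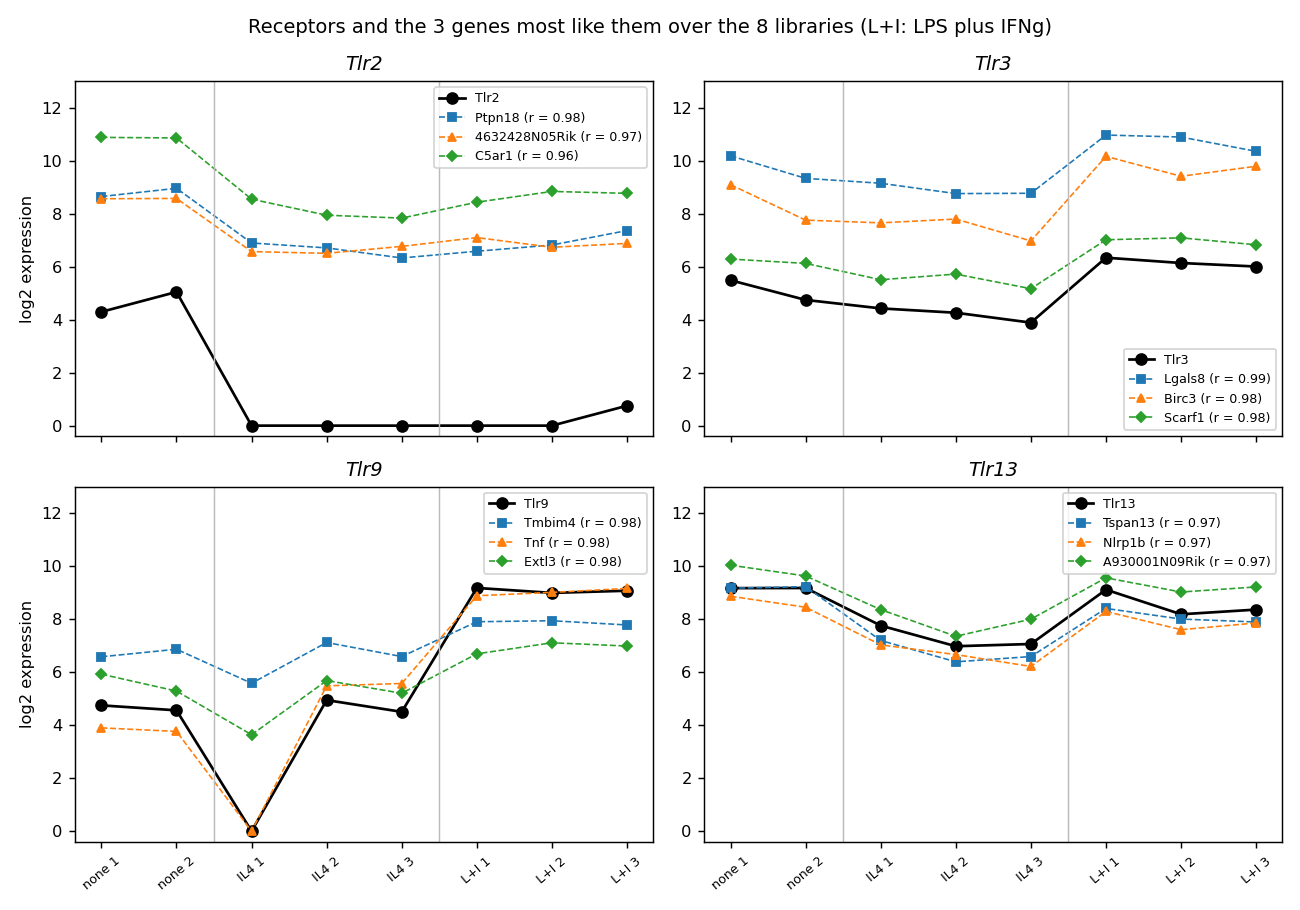
Level (log2 expression) of Tlr2, Tlr3, Tlr9 and Tlr13 (black) and of the 3 genes with the highest Pearson r to each (coloured) in the 8 libraries; grey lines divide the groups. Tlr9 and Tnf are both at 0 in IL4 replicate 1 and both near 9 in the LPS plus IFNg libraries.

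The genes around the receptors were taken from 6 lists by role, 63 genes in all, of which 61 varied and were tested; the adaptor Sarm1 and the regulator Sigirr were at 0 in every library. IL4 against unstimulated called 1 of them higher and 3 lower, where 0.514% of all tested genes were called higher and 0.793% lower. LPS plus IFNg against unstimulated called 8 higher and 1 lower (3.72% and 4.25% of all tested genes), and LPS plus IFNg against IL4 called 16 higher and 3 lower (5.91% and 6.96%). Their median differences were -0.44, 0.49 and 0.90 in that order, beside -0.01, -0.04 and 0 for all tested genes. With each library left out in turn these counts ranged from 1 to 3, from 4 to 11 and from 15 to 19; the first fell from 4 to 1 without IL4 replicate 1 or 2 or LPS plus IFNg replicate 2 or 3, and to 2 without unstimulated replicate 2, IL4 replicate 3 or LPS plus IFNg replicate 1. The second fell from 9 to 4 without LPS plus IFNg replicate 2, to 5 without unstimulated replicate 2 or LPS plus IFNg replicate 3, and to 6 without unstimulated replicate 1 or LPS plus IFNg replicate 1.

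Among 11 co-receptors and chaperones, Cd14, which hands LPS to Tlr4, was lower with IL4 and higher with LPS plus IFNg than with IL4. Its level was 7.22 and 7.88 without stimulus, 5.07, 4.29 and 4.68 with IL4, and 8.56, 7.53 and 7.70 with LPS plus IFNg. The difference of IL4 from unstimulated was -2.87 ± 0.44 (SE; limma, adjusted p = 0.0315), and that between the stimuli was 3.25 ± 0.39 (SE; limma, adjusted p = 0.00239). The first call ended in 7 of the 8 fits without 1 library, all but that without LPS plus IFNg replicate 1 (limma, adjusted p up to 0.135), and also with housekeeping scaling (-2.70; limma, adjusted p = 0.0545), while the second held in all 8. LPS plus IFNg and unstimulated libraries overlapped (0.38; limma, adjusted p = 0.705). Ly96, also called MD-2, which binds LPS within the Tlr4 complex, was at 7.55 and 8.20, at 6.26, 6.80 and 7.18, and at 8.19, 8.15 and 7.52 in the same order. Its IL4 libraries were below all others, but neither IL4 against unstimulated (-1.13; limma, adjusted p = 0.272) nor LPS plus IFNg against IL4 (1.21; limma, adjusted p = 0.0601) passed.

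Cd36, a co-receptor of Tlr2 and Tlr6, went the other way: it was at 12.63 and 12.46 without stimulus, at 12.96 to 13.15 with IL4 and at 11.44 to 12.15 with LPS plus IFNg, lower with LPS plus IFNg than with IL4 by a difference of -1.30 (limma, adjusted p = 0.00978). Hsp90b1, also called gp96, the chaperone that folds most of these receptors, was at 13.92 to 14.09 with IL4 and 12.64 to 12.87 with LPS plus IFNg (-1.26; limma, adjusted p = 0.0065). Under scaling on housekeeping genes these became -0.81 and -0.77 and no longer passed (limma, adjusted p = 0.0899 and 0.0612), and under scaling on ribosomal protein genes they became 0.18 and 0.22, so their direction relative to IL4 depends on the scaling. Unc93b1, which carries the endosomal receptors out of the endoplasmic reticulum, was at 11.9998 in both unstimulated libraries, 11.12 to 12.62 with IL4 and 11.83 to 12.52 with LPS plus IFNg, with no difference past the threshold (limma, adjusted p of 0.659 or more).

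Of 5 proteases of the endolysosome that cleave the endosomal receptors, Lgmn, the asparagine endopeptidase, was lower with LPS plus IFNg than without stimulus. It was at 14.14 and 13.69 without stimulus, 12.04 to 12.75 with IL4 and 12.01 to 12.56 with LPS plus IFNg (-1.64; limma, adjusted p = 0.0205). Ctsk, cathepsin K, was lower with LPS plus IFNg, at 4.17 to 5.18, than with IL4, at 5.95 to 7.02 (-1.92; limma, adjusted p = 0.0348). Leaving out single libraries ended both calls (limma, adjusted p up to 0.121 for Lgmn, without unstimulated replicate 1, and up to 0.103 for Ctsk, without IL4 replicate 1). Both calls also ended under scaling, at differences of -0.98 and -0.18 for Lgmn with housekeeping and ribosomal protein genes (limma, adjusted p = 0.113 and 0.706) and of -1.43 and -0.45 for Ctsk (limma, adjusted p = 0.0822 and 0.498).

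Among 6 adaptors, Tirap, the bridge between Tlr2 or Tlr4 and MyD88, was higher with LPS plus IFNg than with IL4. Its levels were 5.53 and 6.14 without stimulus, 4.67, 4.48 and 3.11 with IL4, and 6.92, 6.28 and 6.28 with LPS plus IFNg, and the difference of 2.41 ± 0.55 (SE) passed the threshold (limma, adjusted p = 0.0297). That call ended without either unstimulated library or any LPS plus IFNg library (limma, adjusted p = 0.0524 to 0.102). Myd88, shared by all members but Tlr3, was at 7.55 and 7.81, at 6.29 to 7.95 and at 7.88 to 8.93 in the same order. Ticam1, which encodes TRIF and serves Tlr3 and Tlr4, was at 5.23 and 4.97, at 4.02 to 6.92 and at 5.31 to 6.64. Ticam2, the bridge from Tlr4 to TRIF, was at 4.96 and 4.94, at 3.90 to 5.62 and at 6.27 to 7.14, above all other libraries with LPS plus IFNg. Ticam2 did not pass against IL4 (1.76; limma, adjusted p = 0.0869), and neither did Myd88 (1.10; limma, adjusted p = 0.201) or Ticam1 (0.50; limma, adjusted p = 0.736).

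Of 17 kinases and ubiquitin ligases, 1 was called against unstimulated and 2 between the stimuli, all higher with LPS plus IFNg, where 3.72% and 5.91% of all tested genes were, so these counts are near the background. Peli1, a ubiquitin ligase that modifies IRAK1, was at 9.68 and 10.02 without stimulus, 8.34 to 9.60 with IL4 and 11.49 to 12.12 with LPS plus IFNg (1.85 above unstimulated; limma, adjusted p = 0.0348). Tab3, a partner of the kinase TAK1, was higher than with IL4 by 1.95 (limma, adjusted p = 0.0404). The call of Peli1 against IL4 (2.58; limma, adjusted p = 0.0041) held without each library, while the other 2 calls did not (limma, adjusted p up to 0.201 for Peli1, without unstimulated replicate 1, and up to 0.135 for Tab3, without LPS plus IFNg replicate 2).

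Of 10 transcription factors downstream, 2 were called higher with LPS plus IFNg than without stimulus, where 3.72% of all tested genes were. Compared with IL4, 4 were called higher with LPS plus IFNg, where 5.91% of all tested genes were. Irf7, which drives type I interferon genes behind Tlr7 and Tlr9, was at 6.41 and 7.84 without stimulus, at 4.19, 3.68 and 4.68 with IL4 and at 11.12, 11.31 and 11.22 with LPS plus IFNg. The 3 groups did not overlap; it was lower with IL4 (-2.94; limma, adjusted p = 0.0328, and up to 0.0905, without unstimulated replicate 2) and higher with LPS plus IFNg (4.09; limma, adjusted p = 0.00308). Irf1, induced by IFNg, was at 7.97 and 8.28 without stimulus, 6.28 to 7.78 with IL4 and 12.01 to 12.16 with LPS plus IFNg (3.97 above unstimulated; limma, adjusted p = 0.0023). Irf8, at 10.83 to 11.33 with LPS plus IFNg and 8.52 to 9.03 with IL4, and Rela, the p65 subunit of NF-kappaB, at 7.23 to 7.81 and 5.65 to 6.08, were also higher than with IL4 (2.23 and 1.71; limma, adjusted p = 0.00144 and 0.00774). The calls of Irf1, Irf7, Irf8 and Rela against IL4 held without each library.

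Of 13 negative regulators tested, 5 were called higher with LPS plus IFNg than without stimulus, where 3.72% of all tested genes were, and 8 higher than with IL4, where 5.91% were. Socs1, an inhibitor of cytokine and Toll-like receptor signals, was higher with both stimuli. It was at 3.05 and 2.14 without stimulus, at 8.35, 8.34 and 8.61 with IL4 and at 10.91, 10.80 and 11.13 with LPS plus IFNg, and all 3 comparisons passed (5.84, 8.35 and 2.51; limma, adjusted p = 0.000488, 7.38e-05 and 0.00141), the first not when only the unstimulated and IL4 libraries entered the fit (limma, adjusted p = 0.0706). Cd300lf, an inhibitory receptor, was at 5.87 and 7.36, at 5.42 to 5.61 and at 10.90 to 11.50 in the same order (4.55 above unstimulated; limma, adjusted p = 0.00179).

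The inhibitors of NF-kappaB signalling Nfkbia, Tnfaip3 and Tnip1 were higher with LPS plus IFNg in both comparisons. Nfkbia, which holds NF-kappaB in the cytoplasm, was at 11.84 and 11.95 without stimulus, 10.33 to 11.75 with IL4 and 13.47 to 14.02 with LPS plus IFNg. It was 1.86 above unstimulated (limma, adjusted p = 0.0358), Tnfaip3, the A20 ubiquitin-editing enzyme, 1.95 (limma, adjusted p = 0.0149) and Tnip1, its partner, 1.68 (limma, adjusted p = 0.0224). Each of these 3 calls against unstimulated ended without LPS plus IFNg replicate 2 (limma, adjusted p = 0.0688, 0.0557 and 0.0668), and those of Nfkbia and Tnip1 also without other libraries, up to 0.200 and 0.100 without unstimulated replicate 2. Against IL4 the 3 differences were 2.82, 1.26 and 2.77 (limma, adjusted p = 0.00309, 0.0365 and 0.00131), of which that of Tnfaip3 ended without any IL4 or LPS plus IFNg library (limma, adjusted p = 0.0692 to 0.113). Irak3, the IRAK-M inhibitor of MyD88 signals, was higher with LPS plus IFNg, at 7.96 to 8.27, than with IL4, at 5.04 to 6.42 (2.41; limma, adjusted p = 0.00583). Dusp1, a phosphatase that turns off MAP kinases, was also higher with LPS plus IFNg, at 10.81 to 11.09, than with IL4, at 9.61 to 10.30 (1.02; limma, adjusted p = 0.0192), a call that ended without IL4 replicate 1 or 3 or LPS plus IFNg replicate 2 or 3 (limma, adjusted p = 0.0520 to 0.0690). Inpp5d, the phosphatase SHIP1, was lower with IL4, at 7.88 to 8.004, than without stimulus, at 9.07 and 9.15 (-1.17; limma, adjusted p = 0.0396). That call ended in all 8 fits without 1 library (limma, adjusted p = 0.0537 to 0.0950 without an IL4 or LPS plus IFNg library). Inpp5d was also higher with LPS plus IFNg, at 8.79 to 9.25, than with IL4 (1.06, limma, adjusted p = 0.00774), a call that held without any IL4 or LPS plus IFNg library.

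**Figure D4:**
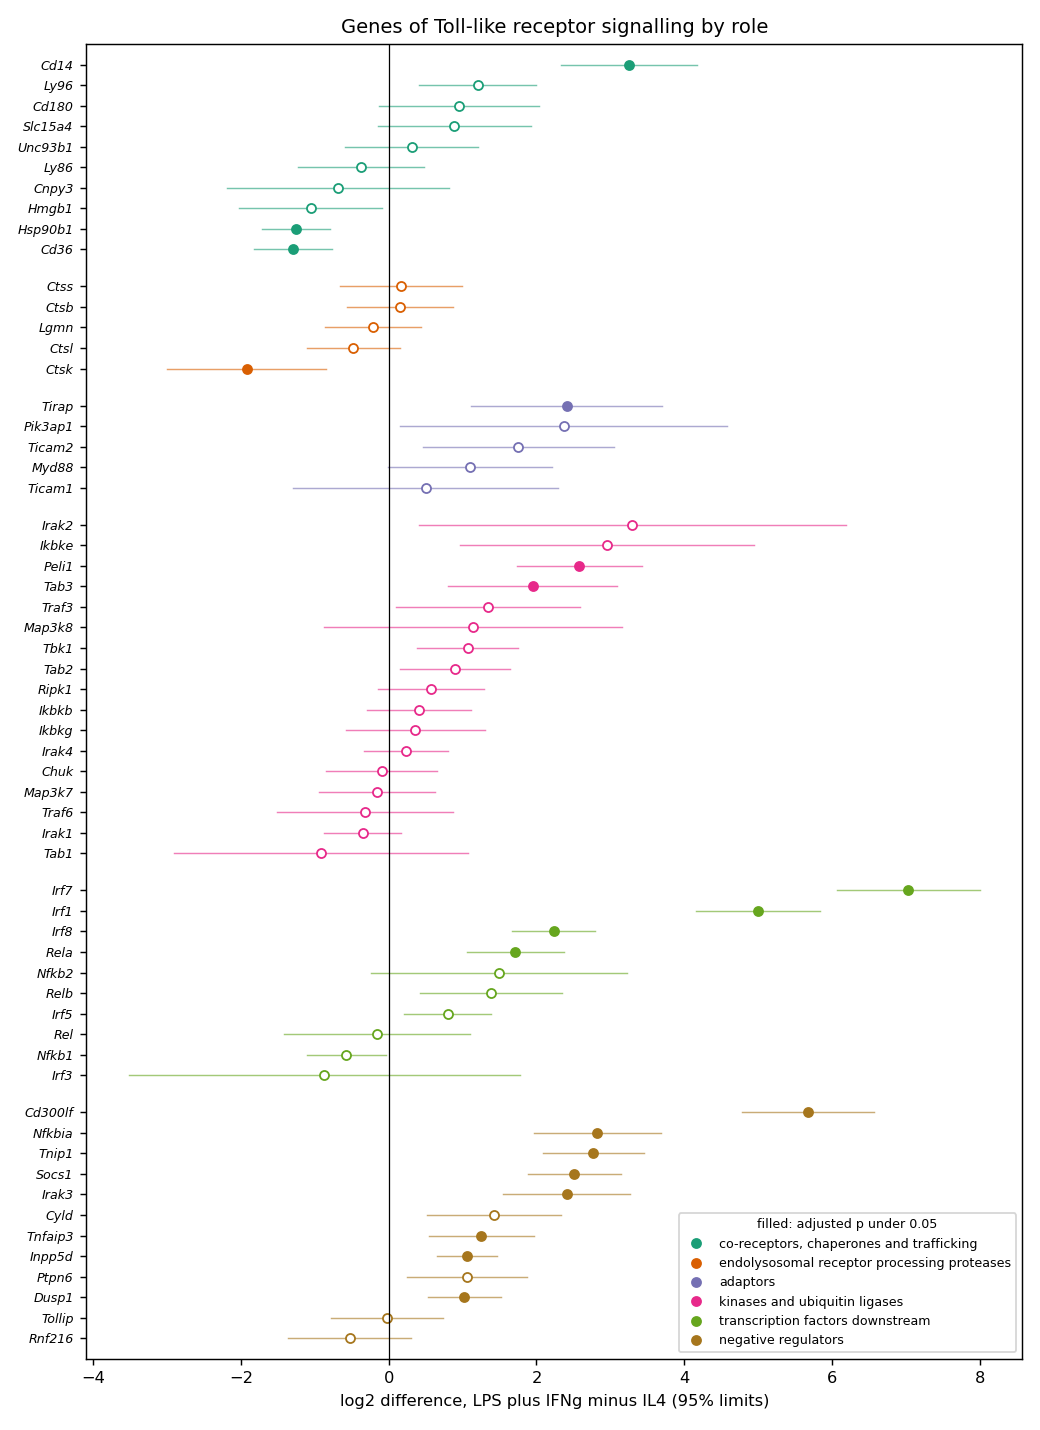
Log2 difference between LPS plus IFNg and IL4 with 95% limits for the tested pathway genes, by role (colour); filled points passed an adjusted p of 0.05, and genes at 0 throughout a group are not drawn. Irf7 (7.03), Cd300lf (5.68) and Irf1 (4.99) lie farthest right, and Cd36, Hsp90b1 and Ctsk are the 3 filled points below 0.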

How the data were processed

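Gene expression was measured by 3′ end RNA-seq in 8 libraries of macrophages. The deposited values are log2 expression in a single table of 20259 rows, 1 of them without a gene symbol and left out; the name of the table says that the authors applied quantile normalisation. TopHat and mm9 are listed in the submitters' processing notes. How reads were counted, how reads with several matches were handled and how zero counts were treated is stated in no source used here. Barcodes tied each column to its library.

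From these values limma 3.58.1 in R 4.3.3 was fitted with 1 mean per group and an intensity trend over 13615 genes that varied (5 residual and 2.31 prior degrees of freedom), with Benjamini-Hochberg adjustment over all of them and a threshold of 0.05. The log2 scale was kept as deposited, with no pseudocount and no filter. The fit was also run on simulated normal levels, with changes planted only in genes with a mean level of at least 5. Those levels held no tested gene listed at exactly 0, so the run does not cover receptors listed at 0 in some libraries. Summed marker levels are log2 of 1 plus the summed linear values. Transcripts came from GENCODE M21, promoter windows from RefSeq.

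The members and gene lists were chosen with earlier results of these data known. All members are named, as are pathway genes past the threshold, Cd14, Ly96, Cd36, Unc93b1, Myd88, Tirap, Ticam1 and Ticam2, and the 3 genes most correlated with each called member. Alternatives were the trend, the groups in the fit, low genes, damped or floored low values, scaling on 11 housekeeping or 82 ribosomal protein genes, array weights, a threshold of 0.01, a replicate block and leaving out each library. Both scalings kept values listed at 0 at 0.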

Additional observations from a re-analysis of the deposited data

How the results depend on the processing

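The number of receptors called between IL4 and unstimulated was 1; it became 2 with low values damped, 0 with only the 2 groups in the fit, at an adjusted p of 0.01 and with the replicate block, and 1 to 2 with each library left out. Between LPS plus IFNg and unstimulated it was 1, and became 2 with only the 2 groups in the fit or low values damped, 5 with ribosomal protein scaling and 1 to 2 with each library left out. Between the stimuli it was 3, and became 5 with housekeeping scaling, 8 with ribosomal protein scaling, 0 at 0.01 and 0 to 3 with each library left out. Pathway genes called were 4, 9 and 19 in the same order. The 4 became 2 without the trend, 0 with only the 2 groups, 1 with housekeeping scaling, at 0.01 and with the replicate block, and 1 to 3 with each library left out. The 9 became 16 and 43 with housekeeping and ribosomal protein scaling, 4 at 0.01 and 4 to 11 with each library left out; the 19 became 48 with ribosomal protein scaling. Over all tested genes the counts were 178, 1085 and 1752, and ranged from 7 to 279, 438 to 4133 and 806 to 5029; the share called higher, 46.6% and 45.9% in the last 2, reached 94.7% and 94.2% with ribosomal protein scaling. Housekeeping scaling moved the median of all genes to 0.08, 0.48 and 0.34, and ribosomal protein scaling to 0, 1.19 and 1.18, so calls under them carry that shift. Otherwise the cause was not tested.

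Signs turned for few results, none of them past the threshold by the original fit except Cd36 and Hsp90b1. Tlr7 between LPS plus IFNg and unstimulated became 0.47 and 1.27 with the 2 scalings, 0.21 with the replicate block and -0.48 to 0.11 with each library left out. Tlr13 in that comparison became 0.0427 and 0.85 with the scalings, and Tlr8 0.43 with ribosomal protein scaling. Between the stimuli, Tlr4 became 0.26 and 1.25 with the scalings and -0.39 to 0.0893 with each library left out, and Cd36 and Hsp90b1 became 0.18 and 0.22 with ribosomal protein scaling. With each library left out, Tlr1 and Tlr9 between IL4 and unstimulated ranged from -0.59 to 0.0731 and from -2.40 to 0.0705. Of 26 member differences 20 kept their sign in every alternative, and of the 5 called 1, Tlr2 with LPS plus IFNg, kept its call wherever it was tested. Both scalings left values listed at 0 unchanged, so they could not move the 2 LPS plus IFNg libraries in which Tlr2 was listed at 0. That call was therefore not fully exposed to the scalings. Of 32 pathway calls 16 were kept and 30 kept their sign. Deviations from the group means had r from -0.0791 to 0.0718 between same-numbered libraries and from -0.0718 to 0.0814 between differently numbered ones (7283 genes). Group means of so few libraries cannot exclude a shared animal or day, so whether the numbers pair the samples is not known. With low genes left out Tlr2 and Tlr5 were not tested.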

Other observations

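Receptors for microbial molecules outside the Toll-like family were measured in the same libraries, and 9 of 12 were higher with LPS plus IFNg than with IL4, with 1, Clec7a, lower, where 5.91% of all tested genes were higher and 6.96% lower. The 9 became 5 without LPS plus IFNg replicate 1 or 2, and 6 to 8 without each of the other libraries. Clec4e, the C-type lectin Mincle, was at 4.19 and 1.58 without stimulus, at 0, 0 and 3.11 with IL4 and at 10.69, 10.69 and 10.73 with LPS plus IFNg (7.82 above unstimulated; limma, adjusted p = 0.00776, and 0.0770 without unstimulated replicate 2). Marco, a scavenger receptor, was at 3.74 and 4.06, at 3.13, 3.68 and 0, and at 9.60, 8.35 and 8.94 in the same order (6.70 above IL4; limma, adjusted p = 0.00488). The cytoplasmic RNA sensors Ddx58, which encodes RIG-I, and Ifih1, which encodes MDA5, were higher with LPS plus IFNg than with IL4 by 4.49 and 4.46 (limma, adjusted p = 0.00563 and 0.0169), the second up to 0.0697 with a library left out (unstimulated replicate 2). Clec7a, the beta-glucan receptor Dectin-1, was at 12.76 to 13.44 with IL4 and 10.37 to 11.40 with LPS plus IFNg (-2.18; limma, adjusted p = 0.00487), and with scaling on ribosomal protein genes the difference was -0.70 and did not pass (limma, adjusted p = 0.0918).

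The mouse receptors Tlr11 and Tlr12 lie outside the members. Tlr11 was at 0 in all 8 libraries. Tlr12 was at 3.41, 0 and 1.17 with LPS plus IFNg and at 0 in the other 5.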
